A study of Mus musculus with 24 samples.

Results

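The acute phase and complement genes described here are Apcs, Crp, Saa2, Saa3, Hp, Orm2, Lbp, Fgb, C3 and Socs3, taken by name and measured in the liver and in 3 segments of the small intestine of wild-type and caspase-1-deficient (Casp1-null) mice. Of the 10 genes, 9 were measured on the arrays, by 10 probe sets (Socs3 had a second one), out of 18820 genes with a probe set of 1 symbol. C3 was not analysed here. The groups were the 4 tissues of both genotypes, with 3 arrays in each and 24 Affymetrix whole-transcript arrays in all. All animals were males aged 14 to 16 weeks on chow. The Casp1-null line had been backcrossed for 10 generations to C57Bl/6, and its age-matched controls were C57Bl/6J. Livers were taken after a fast of 16 h. The intestine came from mice fasted overnight that received 200 µL of olive oil into the stomach 2 h before it was removed, and only its scraped epithelial layer was used. Both genotypes were treated alike, so no array shows intestine without the oil or liver without the fast. In these groups the loss of caspase-1 and whatever the backcross left of another strain cannot be told apart. The same holds for any difference between the C57Bl/6 stock of the backcross and the C57Bl/6J controls. The records state 3 mice per genotype, but not whether arrays with the same number in different tissues came from 1 mouse.

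Acute phase proteins are plasma proteins, made mostly by hepatocytes, whose output changes within hours to days of infection or tissue damage. Interleukin-6 acts on hepatocytes through STAT3, while interleukin-1 and tumour necrosis factor act through NF-kappaB and C/EBP factors. SOCS3 is induced by STAT3 and shuts off signalling from the interleukin-6 receptor. Caspase-1, the protease of inflammasomes, cleaves the precursors of interleukin-1β and interleukin-18 into their active forms. Several of these genes are also active outside the liver: serum amyloid A genes are induced in the ileal epithelium of mice by contact with bacteria, and haptoglobin is made by adipocytes.

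Promoter windows were at hand for 8 of the 10 genes, C3 included (RefSeq, build GRCm38.p6, 250 bases before to 50 after the start of the gene). The windows of Apcs, Crp, Fgb and Socs3 are shown, because Apcs was the member that rose in liver, Crp is its neighbour on the chromosome with an opposite difference, Fgb held 3 kinds of motif, and Socs3 is the feedback inhibitor of the pathway that the motifs belong to. Capitals mark matches, on either strand, to the STAT motif TTCNNNGAA, to the interleukin-6 response element CTGGGAA, to the C/EBP motif TTGCNNAA and to TATAAA.
Apcs, chr1:172895005-172895304, minus strand: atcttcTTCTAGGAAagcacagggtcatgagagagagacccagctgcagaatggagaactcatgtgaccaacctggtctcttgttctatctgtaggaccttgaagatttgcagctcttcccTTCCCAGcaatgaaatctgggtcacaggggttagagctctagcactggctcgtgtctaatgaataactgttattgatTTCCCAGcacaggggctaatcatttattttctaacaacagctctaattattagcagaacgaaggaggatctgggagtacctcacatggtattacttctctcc
Crp, chr1:172697806-172698105, plus strand: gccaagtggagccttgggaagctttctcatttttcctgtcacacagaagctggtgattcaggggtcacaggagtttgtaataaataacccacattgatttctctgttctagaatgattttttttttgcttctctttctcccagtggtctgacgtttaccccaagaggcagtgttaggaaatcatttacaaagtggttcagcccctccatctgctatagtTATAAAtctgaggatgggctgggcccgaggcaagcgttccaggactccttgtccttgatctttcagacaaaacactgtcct
Fgb, chr3:83049814-83050113, minus strand: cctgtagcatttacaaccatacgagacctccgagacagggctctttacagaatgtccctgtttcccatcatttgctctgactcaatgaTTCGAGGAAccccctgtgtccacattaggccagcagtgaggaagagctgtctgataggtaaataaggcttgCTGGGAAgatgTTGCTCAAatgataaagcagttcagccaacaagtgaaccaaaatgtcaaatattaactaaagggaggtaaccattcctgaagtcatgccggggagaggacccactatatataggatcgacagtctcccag
Socs3, chr11:117969317-117969616, minus strand: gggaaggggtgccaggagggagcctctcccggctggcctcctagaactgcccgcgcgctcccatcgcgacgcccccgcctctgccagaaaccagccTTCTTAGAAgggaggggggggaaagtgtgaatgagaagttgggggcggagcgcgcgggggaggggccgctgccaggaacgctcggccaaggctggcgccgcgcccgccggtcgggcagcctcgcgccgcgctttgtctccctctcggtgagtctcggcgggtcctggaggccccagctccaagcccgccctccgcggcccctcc

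The STAT motif lay in the windows of 3 of the 8 genes (Apcs, Fgb and Socs3), against 8.30% of 32851 RefSeq promoter windows of the same length. In Apcs it began 244 bases before the start of the gene, in Fgb 162 and in Socs3 154. CTGGGAA lay in 2 of the 8 (Apcs, with 2 copies beginning 129 and 52 bases before the start, and Fgb), against 11.1% of all windows. The C/EBP motif lay in 5 of the 8 (C3, Fgb, Orm2, Saa2 and Saa3), against 10.8%. In Fgb it began 80 bases before the start, just past the CTGGGAA match at 91. TATAAA lay in C3, Crp and Orm2, against 13.6%. A consensus NF-kappaB motif was found in 0 of the 8 windows and in 4.51% of all windows. None of the matches overlapped another. They are matches of letters in a short window and were not tested as sites.

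Values are log2 RMA expression, 1 unit being a doubling, and differences are Casp1-null minus wild type with the standard error (SE) of a limma fit over all 35556 probe sets. "Rose", "fell" and "called" stand for a Benjamini-Hochberg adjusted p under 0.05. Levels of different genes were not set against each other, since each probe set has its own response. A group is called low where its mean lay below the smallest median of any array of the organ (5.19 for liver, 4.87 for intestine), and its level may then be background. Hepatocyte markers averaged 12.81 to 13.01 on liver arrays and enterocyte markers 11.21 to 12.44 on intestinal arrays. Casp1 fell in all 3 segments (differences of -2.07 to -3.07), but was low in the livers of both genotypes, where it does not check the labels. Arrays of 1 group correlated across probe sets at r of 0.9787 to 0.9926. Wild-type duodenal array 1 held pancreatic transcripts (mean of 9 markers 9.80, against 4.49 to 4.88 on the other duodenal arrays). Wild-type ileal array 2 and Casp1-null ileal array 3 held smooth muscle and connective tissue transcripts (mean of 12 markers 8.77 and 8.40). The other ileal arrays had means of 4.42 to 4.69. Casp1-null jejunal array 3 had a mean of 5.61, against 4.51 to 4.86 on the other jejunal arrays. The SDs below are over 3 arrays, and their number limits the precision.

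In the fasted liver, Apcs was the 1 of 9 members that rose in Casp1-null mice, and none fell. Across all genes 0.925% were called, of which those that rose made 0.399% of all genes and those that fell 0.526%. The members' median difference was 0.33 against -0.01 over all genes, and 8 of 9 differences were above 0, against 48.3% of all genes. Casp1-null array 2 was the highest of its group for 8 of the 9 members. The genotypes did not overlap for 6 of 9 members, against 20.0% of all genes. Apcs, Saa2, Hp, Lbp and Socs3 were higher in every Casp1-null liver than in any wild-type liver, which held for 8.96% of all genes, and Crp was lower in every one, which held for 11.1%. At an unadjusted p under 0.05, 5 of 9 members passed, against 12.8% of all genes. The members were chosen with earlier results of these data known and were measured on the same arrays, so these shares are a description. In bulk liver, fewer cells of a type and less RNA per cell cannot be told apart.

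The 2 short pentraxins, Apcs and Crp, differed in opposite directions. Apcs encodes serum amyloid P component, a plasma protein that binds amyloid, DNA and bacterial surfaces and is a main acute phase reactant of mice. Its level was 8.53, 8.58 and 8.60 in the wild-type livers and 9.95, 10.20 and 9.46 in the Casp1-null livers. All 3 Casp1-null values were higher, and they were more spread out (SD 0.376) than the wild-type values (SD 0.0355). Apcs rose by 1.30 (SE 0.185), or 2.46-fold (limma, adjusted p = 0.0408). This call held when Casp1-null array 3 was left out (adjusted p = 0.0134), and was lost when any of the other 5 liver arrays was left out, with a difference of 1.14 to 1.32 and an adjusted p of 0.0646 to 0.17. Crp encodes C-reactive protein, which binds phosphocholine and activates complement, and is only a modest acute phase reactant in mice. Its level was 11.71, 11.56 and 11.71 in wild-type livers and 11.24, 11.37 and 11.08 in Casp1-null livers. Each Casp1-null liver was lower, by 0.43 on average (SE 0.109), which did not pass the test (adjusted p = 0.194).

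**Figure D1:**
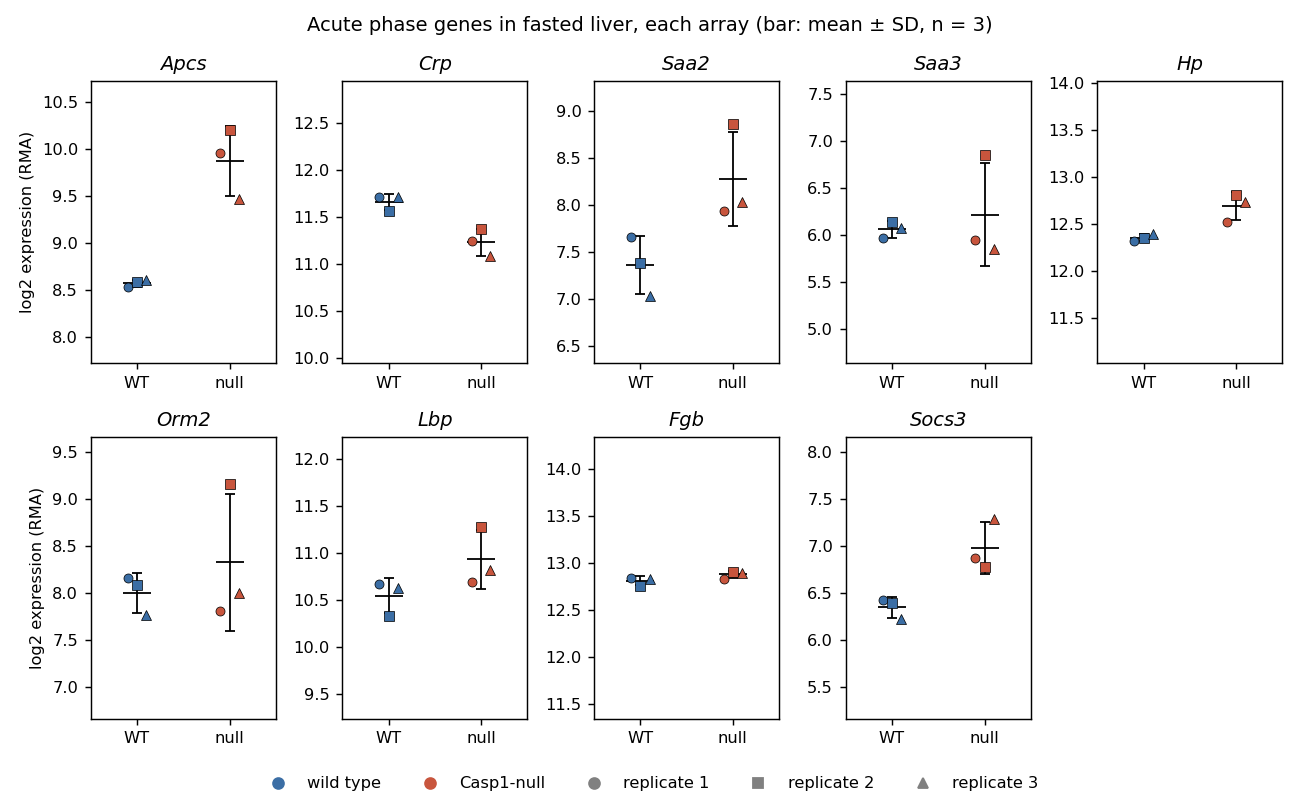
Log2 expression (vertical axis, RMA) of the 9 measured genes on each of the 6 liver arrays, wild type in blue and Casp1-null in red, with symbols for the replicate number and bars for mean ± SD of 3 arrays. Each panel spans the same number of log2 units. Apcs lies at 8.53 to 8.60 in wild type and 9.46 to 10.20 in Casp1-null, Crp is lower in every Casp1-null liver, and Casp1-null array 2 (square) is the highest of its group in 8 of the 9 panels.

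Crp and Apcs are adjacent among the measured genes of chromosome 1, so the genes around them were looked at in the same fit. Of the 20 measured genes nearest to Apcs, 10 on each side, 0 rose and 1 fell in liver, Dusp23, which encodes a small phosphatase. Of all genes, 0.925% were called in liver, 1.21% in duodenum, 2.06% in jejunum and 0.893% in ileum. Dusp23 lies beyond Crp and fell from a mean of 7.71 to 6.76, by 0.96 (adjusted p = 0.0474). It also fell in duodenum (-0.90, adjusted p = 0.000393), jejunum (-0.52, adjusted p = 0.0232) and ileum (-0.53, adjusted p = 0.0356). Aim2, which encodes a cytosolic DNA sensor that recruits caspase-1, rose in duodenum from 5.84 to 8.11 (2.26, adjusted p = 3.29e-06), in jejunum by 1.27 (adjusted p = 0.000671) and in ileum by 0.90 (adjusted p = 0.0142). In liver Aim2 differed by 0.45 (adjusted p = 0.636). Apcs itself was low in all intestinal groups. Around Saa3, on chromosome 7, 0 of the 20 nearest measured genes were called in any of the 4 tissues by the same limma fits.

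**Figure D2:**
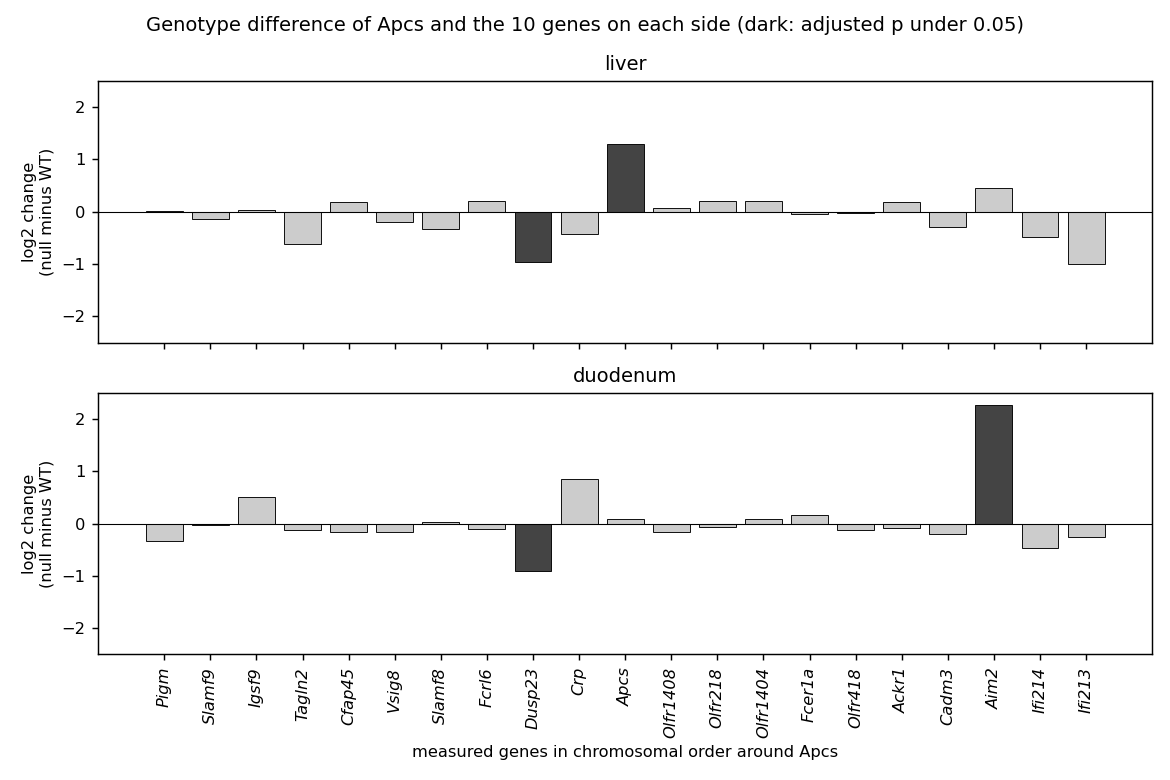
Genotype difference (vertical axis, log2, Casp1-null minus wild type, from the limma fit on n = 3 arrays per group) for Apcs and the 10 measured genes on each side in chromosomal order, in liver (top) and duodenum (bottom). Dark bars are called at an adjusted p under 0.05: Dusp23 (-0.96) and Apcs (1.30) in liver, Dusp23 (-0.90) and Aim2 (2.26) in duodenum.

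Serum amyloid A proteins travel on high-density lipoprotein and are among the most strongly induced products of the acute phase liver. Saa2 was at 7.66, 7.39 and 7.04 in wild-type livers and at 7.94, 8.86 and 8.04 in Casp1-null livers. The Casp1-null values were all higher, with array 2 well above the other two. The difference was 0.92 (SE 0.274), a 1.89-fold higher mean that did not pass the test (adjusted p = 0.254). A probe set shared by Saa2 and its near-identical copy Saa1, which cannot be assigned to either gene, was low in both genotypes in liver, at 4.24, 4.41 and 4.08 in wild type and 5.08, 5.41 and 4.49 in Casp1-null mice (adjusted p = 0.272). Saa3, whose product is made chiefly by macrophages, adipocytes and epithelia, was at 5.97, 6.14 and 6.08 in wild-type and 5.95, 6.85 and 5.86 in Casp1-null livers. Here the genotypes overlapped, and only Casp1-null array 2 stood above the wild-type range (difference 0.16, adjusted p = 0.882). How far the probe sets of the array separate the Saa copies was not tested.

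Hp and Orm2 encode plasma carriers: haptoglobin captures free haemoglobin, and orosomucoid 2, an α1-acid glycoprotein, binds small lipophilic molecules. Hp was at 12.32, 12.35 and 12.39 in wild-type and 12.52, 12.81 and 12.73 in Casp1-null livers. The values did not overlap, but the difference of 0.33 (SE 0.104) did not pass the test (adjusted p = 0.283). Orm2 was at 8.16, 8.08 and 7.76 in wild-type and 7.81, 9.16 and 8.00 in Casp1-null livers, where array 2 alone exceeded the wild-type range (difference 0.32, adjusted p = 0.794). Orm1, a near copy of Orm2 that its probes may also detect, lay at 12.38 to 12.53 in wild-type and 12.44 to 12.59 in Casp1-null livers.

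Lbp encodes lipopolysaccharide-binding protein, which hands bacterial lipopolysaccharide to CD14 and so to Toll-like receptor 4. It was at 10.67, 10.33 and 10.63 in wild-type and 10.69, 11.28 and 10.82 in Casp1-null livers. The groups were separated by only 0.02 between the nearest arrays, and the difference of 0.39 (SE 0.178) did not pass the test (adjusted p = 0.468). Fgb, the β chain of fibrinogen, was at 12.84, 12.75 and 12.83 in wild-type and 12.83, 12.90 and 12.89 in Casp1-null livers, the smallest difference among the members (0.07, SE 0.0837, adjusted p = 0.835). Socs3 was at 6.43, 6.40 and 6.22 in wild-type and 6.87, 6.78 and 7.29 in Casp1-null livers. Every Casp1-null liver was higher, by 0.63 on average (SE 0.151, adjusted p = 0.164), and the second Socs3 probe set, low in wild type, gave 0.31 (adjusted p = 0.277).

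Among the Casp1-null livers array 2 tended to stand above the others. It was the highest of the 3 Casp1-null livers for 8 of 9 members, Socs3 being the exception, and for 17 of 24 other acute phase genes. Over all genes, it was the highest of the 3 for 29.1%. In wild type, array 1 was the highest for 5 of 9 members and 12 of the 24 others, against 28.5% of all genes. Neutrophil markers lay at 3.81 to 3.99 in wild-type and 3.88 to 4.09 in Casp1-null livers, with at least 9 of the 10 under that array median on every liver array. Kupffer and myeloid markers lay at 7.46 to 7.91 and 7.46 to 8.01.

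Marker means of 5 cell types differed between the genotypes in liver without overlap. Hepatocyte markers lay at 12.81 to 12.89 in wild type and 12.90 to 13.01 in Casp1-null livers. T and NK cell markers lay at 4.37 to 4.55 and 4.17 to 4.30, with 9 or 10 of 11 genes under that array median. B and plasma cell markers lay at 4.83 to 5.23 and 4.49 to 4.57, with 5 or 6 of 8 genes under it. Enterocyte markers, several of which the liver also expresses, lay at 7.45 to 7.74 and 7.10 to 7.16, and Paneth and goblet cell markers at 5.05 to 5.48 and 4.85 to 4.93. Of these lists, 2 to 5 of 10 and 4 to 7 of 10 genes were under that array median. The part of these differences in the values of Apcs and the other members was not tested.

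Among other genes of the acute phase, 1 of 24 measured positive reactants rose in liver and 0 fell, against 0.399% and 0.526% of all genes. Their median difference was 0.08, against -0.01 over all genes. The 1 that rose was Fgl1, a hepatocyte-secreted fibrinogen-like protein, which was at 10.12, 10.12 and 10.15 in wild-type and 11.0, 11.51 and 11.46 in Casp1-null livers. Fgl1 rose by 1.19 (SE 0.146, 2.29-fold, adjusted p = 0.0232). Of 11 negative reactants, whose plasma levels drop in the acute phase, 0 were called in liver by limma. An unadjusted p under 0.05, which 12.8% of all genes passed, was reached by 2 of them. These were Apoa4, with a difference of 1.37 (adjusted p = 0.109), and the corticosteroid-binding globulin gene Serpina6, with -0.55 (adjusted p = 0.208).

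Of 20 measured complement components, 1 rose in liver and 0 fell (median -0.04), against 0.399% and 0.526% of all genes. Colec11, a soluble lectin that starts the lectin pathway, was at 7.88, 8.06 and 8.09 in wild-type and 8.78, 8.83 and 8.74 in Casp1-null livers, and rose by 0.78 (SE 0.0957, adjusted p = 0.0236). Of 16 complement regulators and receptors, 0 were called in liver by limma and 2 passed an unadjusted p under 0.05, against 12.8% of all genes. Cfi, the protease that inactivates C3b and C4b, came nearest, at 11.89, 11.70 and 11.95 in wild-type and 10.98, 11.25 and 10.81 in Casp1-null livers (difference -0.83, adjusted p = 0.0671). Of 31 genes of the signalling that drives the acute phase, 0 were called in liver by limma. At an unadjusted p under 0.05, 5 passed, against the same 12.8% of all genes. Il6 was low in all 8 groups, at 2.31 to 2.54 in liver. Cebpb, a C/EBP factor, was at 8.37, 8.45 and 8.25 in wild-type and 8.76, 9.34 and 9.38 in Casp1-null livers (difference 0.80, adjusted p = 0.138). Stat3 lay at 10.07 to 10.21 and 10.01 to 10.30.

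In the intestine Lbp was the member that was called. It rose in the duodenum and jejunum of Casp1-null mice and in the mean over the 3 segments, while the liver-type members Apcs, Crp, Hp, Orm2, Fgb and Saa2 were low in every intestinal group mean. In duodenum 1 of 9 members was called (background 1.21%, and 0.600% for genes that rose). In jejunum it was also 1 of 9 (background 2.06%, and 1.06% for genes that rose). In ileum limma called 0 of 9 (background 0.893%), and 1 of 9, Lbp, passed an unadjusted p under 0.05 (background 6.90%).

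In duodenum Lbp was at 5.09, 5.17 and 4.81 in wild type and 6.65, 6.17 and 6.60 in Casp1-null mice. All Casp1-null values were higher, and Lbp rose by 1.45 (SE 0.306), or 2.73-fold (adjusted p = 0.0338). The wild-type mean of 5.03 lay just above the low level of 4.87, so this fold may be understated. Groups did not overlap for 2 of 9 members there, Lbp and Saa3, against 22.7% of all genes, and Saa3 was low in both genotypes. The duodenal call was lost without wild-type duodenal array 1 (adjusted p = 0.0837), array 2 (0.0887) or array 3 (0.13), and without Casp1-null array 1 (0.126) or array 3 (0.138), with a difference of 1.34 to 1.52. Of the marker lists, 4 were higher in every Casp1-null duodenum: 4.99 to 5.22 against 4.53 to 4.65 for smooth muscle and connective tissue, 4.46 to 4.99 against 4.21 to 4.24 for endothelium, 5.23 to 5.74 against 4.95 to 5.10 for myeloid cells, and 5.51 to 5.99 against 4.88 to 5.06 for B and plasma cells. Of these markers, 4 to 8 of 12, 3 to 8 of 8, 5 to 8 of 11 and 3 to 5 of 8 were under that array median on single duodenal arrays. Hepatocyte markers (6.29 to 6.43 against 6.47 to 6.72) and neutrophil markers (3.61 to 3.68 against 3.75 to 3.77) were lower in every Casp1-null duodenum. Of these, 3 or 4 of 9 and 9 or 10 of 10 were under that array median. T and NK cell markers overlapped (7.97 to 8.58 against 7.97 to 8.54). The part of these markers in the duodenal Lbp difference was not tested.

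In jejunum Lbp was at 6.09, 5.50 and 5.60 in wild type and 7.46, 7.32 and 8.26 in Casp1-null mice. The lowest Casp1-null array lay 1.23 above the highest wild-type array, and Lbp rose by 1.94 (SE 0.306), or 3.85-fold (adjusted p = 0.00349). This call held in each of 18 fits that left out 1 intestinal array, with a difference of 1.65 to 2.12 and an adjusted p of 0.00179 to 0.0216. Of the marker lists, adipocyte markers were higher in every Casp1-null jejunum (6.45 to 6.72 against 6.24 to 6.29). On each of these arrays, 6 or 7 of the 12 genes were under that array median. Adipoq, Retn, Car3 and Fabp4 of this list overlapped, with Fabp4 at 4.88 on Casp1-null array 3 and 3.13 to 3.42 elsewhere. Casp1-null array 3, the highest for Lbp, exceeded the other jejunal arrays in smooth muscle and connective tissue markers (5.61 against 4.51 to 4.86). It also did so for endothelium (5.28 against 4.14 to 4.31) and myeloid cells (5.86 against 4.94 to 5.24). The part of these markers in the jejunal Lbp difference was not tested. In ileum Lbp was at 8.17, 7.34 and 8.31 in wild type and 9.42, 8.88 and 8.39 in Casp1-null mice. The nearest arrays were 0.09 apart, and the difference of 0.96 (SE 0.306, 1.95-fold) did not pass the test (adjusted p = 0.319). Lbp was the 1 of 9 members without overlap in ileum, against 9.23% of all genes. Without both ileal arrays rich in smooth muscle transcripts it differed by 0.92 in ileum (adjusted p = 0.389), and the duodenal and jejunal adjusted p were 0.0096 and 0.00104.

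Averaged over the segments of 1 number, Lbp was at 6.45, 6.01 and 6.24 in wild type and at 7.84, 7.45 and 7.75 in Casp1-null mice, a rise of 1.45 (SE 0.142, 2.73-fold, adjusted p = 0.00572). It was the 1 of 9 members called for this mean, against 2.07% of all genes (0.988% rose). The call held in each of 6 fits that left out 1 number of 1 genotype (adjusted p 0.014 to 0.0335). No member was called for a genotype difference that varied between segments: 0 of 9 passed limma's test of genotype by segment (background 0.117%), and 0 of 9 passed an unadjusted p under 0.05 (background 5.56%), Lbp having an adjusted p of 0.94. That test cannot show that the differences were equal.

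**Figure D3:**
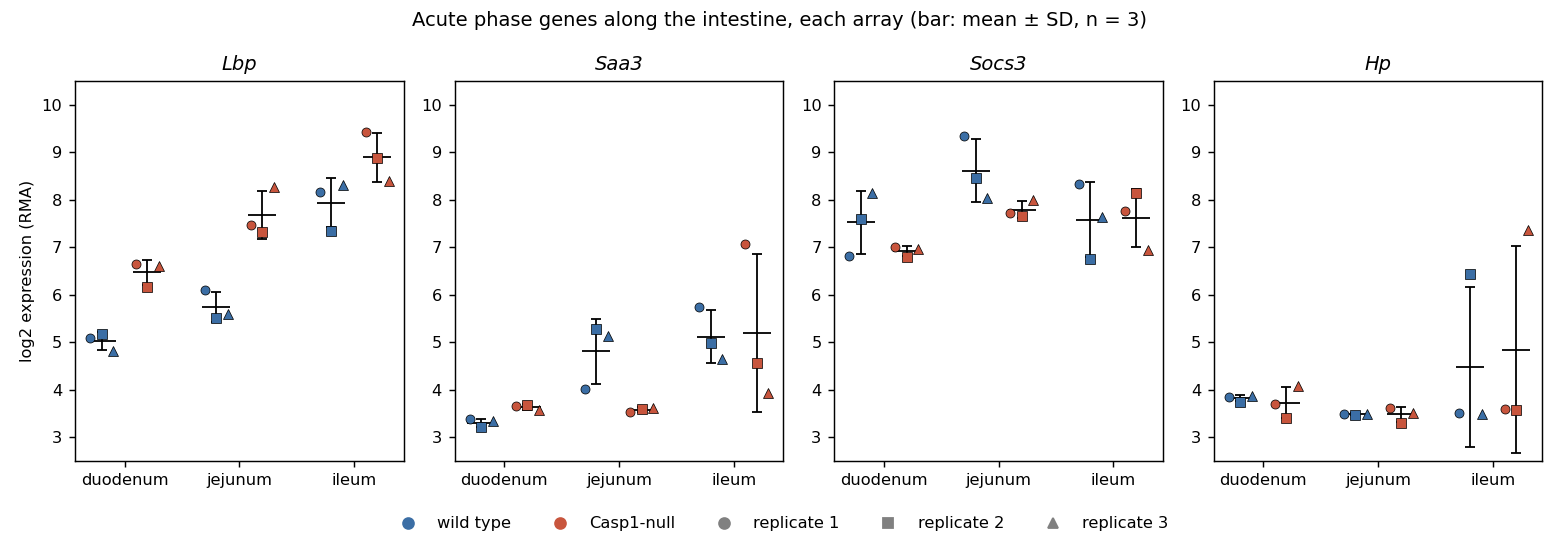
Log2 expression (vertical axis, RMA) of Lbp, Saa3, Socs3 and Hp on each of the 18 intestinal arrays by segment, wild type in blue and Casp1-null in red, with symbols for the replicate number and bars for mean ± SD of 3 arrays. Lbp climbs from duodenum to ileum and lies higher in Casp1-null mice in each segment, while Hp stands out on 1 ileal array of each genotype (6.43 and 7.36).

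Serum amyloid A genes were variable along the intestine, with single arrays far above the others. Saa3 in jejunum was at 4.02, 5.27 and 5.13 in wild type and 3.53, 3.58 and 3.62 in Casp1-null mice. All Casp1-null values were lower, but both group means were low, and the difference did not pass the test (adjusted p = 0.436). In ileum Saa3 was at 5.74, 4.97 and 4.64 in wild type and 7.07, 4.56 and 3.93 in Casp1-null mice, with array 1 the highest in both genotypes (difference 0.07, adjusted p = 0.999). Saa2 was low in each segment, and array 1 of each genotype was again the highest in ileum (4.53 in wild type and 5.22 in Casp1-null mice, against 2.75 to 3.24 on the other ileal arrays). The probe set shared by Saa2 and Saa1 was at 9.26, 7.41 and 7.39 in wild-type and 9.68, 7.52 and 5.82 in Casp1-null ileum (difference -0.35, adjusted p = 0.999), with the same 2 arrays highest. In jejunum it was at 4.28, 4.78 and 5.52 in wild type and 3.11, 2.98 and 3.48 in Casp1-null mice, where both means were low (adjusted p = 0.369). It has no call in any of these genotype comparisons.

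Socs3 was well above the array median in all segments. In jejunum it was at 9.34, 8.45 and 8.04 in wild type and 7.71, 7.66 and 7.99 in Casp1-null mice. Every Casp1-null value was lower, by 0.82 on average (SE 0.423), which did not pass the test (adjusted p = 0.511), and the second probe set gave -0.61 with overlapping groups (adjusted p = 0.275). In duodenum Socs3 was at 6.82, 7.59 and 8.15 in wild type and 7.0, 6.79 and 6.96 in Casp1-null mice (difference -0.60, adjusted p = 0.6). In ileum it was at 8.34, 6.76 and 7.63 in wild type and 7.76, 8.15 and 6.95 in Casp1-null mice (difference 0.04, adjusted p = 0.999). The wild-type arrays were the more spread out in duodenum and jejunum (SD 0.667 in each, against 0.115 and 0.181 in Casp1-null mice).

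In jejunum 5 of 9 members did not overlap between genotypes, against 19.5% of all genes. Lbp and Crp were higher, and Saa2, Saa3 and Socs3 lower, which held for 10.3% and 9.24% of all genes. Of these 5, only Lbp and Socs3 had a group mean above the low level. Crp in duodenum was at 3.89, 4.11 and 3.49 in wild type and 5.0, 3.86 and 5.19 in Casp1-null mice. Both group means were low and array 2 of the Casp1-null group lay within the wild-type range (adjusted p = 0.146). Without that array the limma fit called Crp in duodenum (difference 1.27, adjusted p = 0.000984), so this array decided it.

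Hp in the intestine stood out on 2 of 18 arrays, both from ileum. It was at 3.51, 6.43 and 3.49 in wild-type and 3.59, 3.57 and 7.36 in Casp1-null ileum, and at 3.30 to 4.07 in duodenum and jejunum. Wild-type array 2 and Casp1-null array 3 were the high ones, the same that held smooth muscle and connective tissue transcripts. Their means of 12 adipocyte markers were 8.79 and 9.21, against 5.42 to 5.90 on the other 4 ileal arrays. Adiponectin (Adipoq) was at 7.77 and 8.57 on them against 3.27 to 3.47, and the fatty acid carrier Fabp4 at 8.69 and 9.45 against 3.10 to 3.65. Not all of the list followed: Lipe was at 9.53 and 9.95 against 9.50 to 10.05. Lep, Pck1 and Cidec exceeded the other 4 ileal arrays on only 1 of the 2 arrays. Of the 12 markers, 0 and 1 were under that array median on these arrays and 7 or 8 on each of the others. Orm1, also made by adipocytes, was at 6.38 on Casp1-null array 3, but at 4.15 on wild-type array 2. It lay at 3.52 to 3.89 on the other ileal arrays, whereas Orm2 lay at 3.48 to 3.73 on all 6. Endothelium markers were also higher on wild-type array 2 and Casp1-null array 3 (5.11 and 5.86, against 4.05 to 4.31). Which cells held the Hp transcripts on these arrays was not tested. The genotype difference of Hp in ileum was 0.36 (SE 0.839, adjusted p = 0.999), and 0.08 without both arrays.

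**Figure D4:**
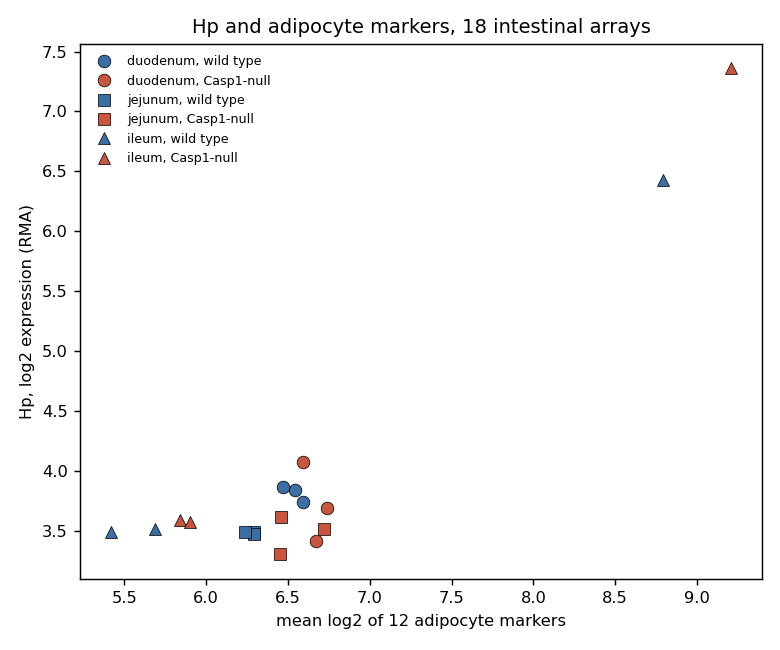
Hp (vertical axis, log2 RMA) against the mean log2 of 12 adipocyte markers (horizontal axis) on the 18 intestinal arrays, shapes for segments and colours for genotypes. Wild-type ileal array 2 (8.79 and 6.43) and Casp1-null ileal array 3 (9.21 and 7.36) lie apart from the other 16 arrays, whose Hp is 3.30 to 4.07.

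Beside the members, 1 of 16 complement regulators and receptors fell in each segment, and it was Cfi each time. Of all genes, 1.21%, 2.06% and 0.893% were called in duodenum, jejunum and ileum. In duodenum Cfi was at 5.46, 5.40 and 6.09 in wild type and 3.86, 3.88 and 3.65 in Casp1-null mice, where it was low, so that it fell by at least 1.86 (adjusted p = 0.000172). In jejunum it was at 4.58, 5.30 and 5.24 in wild type and 3.14, 3.24 and 3.35 in Casp1-null mice (a fall of at least 1.80, adjusted p = 0.000231). In ileum it was low in both genotypes (adjusted p = 0.00726). Among 20 complement components 0 were called in any segment by limma, with 6, 4 and 0 at an unadjusted p under 0.05 in duodenum, jejunum and ileum, which 13.0%, 12.9% and 6.90% of all genes passed. C2 in jejunum, the nearest, was at 7.89, 7.90 and 7.61 in wild type and 6.88, 6.94 and 6.59 in Casp1-null mice (difference -0.99, adjusted p = 0.0543).

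Of 24 other positive reactants, 1 fell in jejunum, where 2.06% of all genes were called. In duodenum and ileum limma called 0 of them, with 3 and 0 at an unadjusted p under 0.05. The jejunal gene was Hamp, which encodes the iron hormone hepcidin. Hamp was at 5.62, 5.65 and 4.94 in wild-type jejunum and 3.84, 3.97 and 4.10, a low level, in Casp1-null jejunum (a fall of at least 1.43, adjusted p = 0.000814). Of 31 signalling genes, 2 fell in jejunum and 0 rose, where 2.06% of all genes were called. An unadjusted p under 0.05 was passed by 12 of the 31 there, against 12.9% of all genes. Nfkbia, the NF-kappaB inhibitor that NF-kappaB itself induces, was at 10.93, 10.56 and 11.11 in wild type and 9.85, 10.11 and 10.42 in Casp1-null mice (-0.74, SE 0.171, adjusted p = 0.0422). Tnf was at 6.05, 5.51 and 6.67 in wild type and 4.76, 4.66 and 4.91, a low level, in Casp1-null mice (a fall of at least 1.30, adjusted p = 0.0331). In duodenum and ileum 0 signalling genes were called by limma, with 10 and 1 of 31 at an unadjusted p under 0.05, against the same 13.0% and 6.90% of all genes. The 11 negative reactants had 0 calls in each segment, with 1, 0 and 1 at an unadjusted p under 0.05 in duodenum, jejunum and ileum.

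Liver and intestine were then set against each other. The genotype difference in liver minus the mean of the 3 segments was called for 1 of 9 members, Apcs, against 2.78% of all genes (1.25% with the liver difference higher). For Apcs it was 1.31 (SE 0.139, adjusted p = 1.12e-05), but Apcs was low in all 6 intestinal groups (3.21 to 3.64 on the 18 arrays). With no level measured above the array median in intestine, this value restates the liver difference, with an SE narrowed by the small spread of the low intestinal values, and it adds no evidence on how stable the liver call is. For Lbp, where the intestinal difference was the larger, it was -1.06 (SE 0.332) and did not pass the test (adjusted p = 0.127). For Crp, whose means were low in all 6 intestinal groups and may be background there, it was -0.83 (adjusted p = 0.138). Without Casp1-null duodenal array 2 it was -0.97 (adjusted p = 0.00187). For Socs3 it was 1.09 (SE 0.441, adjusted p = 0.286). Fgl1, at 3.91 to 4.58 on the intestinal arrays, and Colec11, at 4.63 to 5.25, were low or close to the array median there, so no contrast of the tissues is drawn for them.

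**Figure D5:**
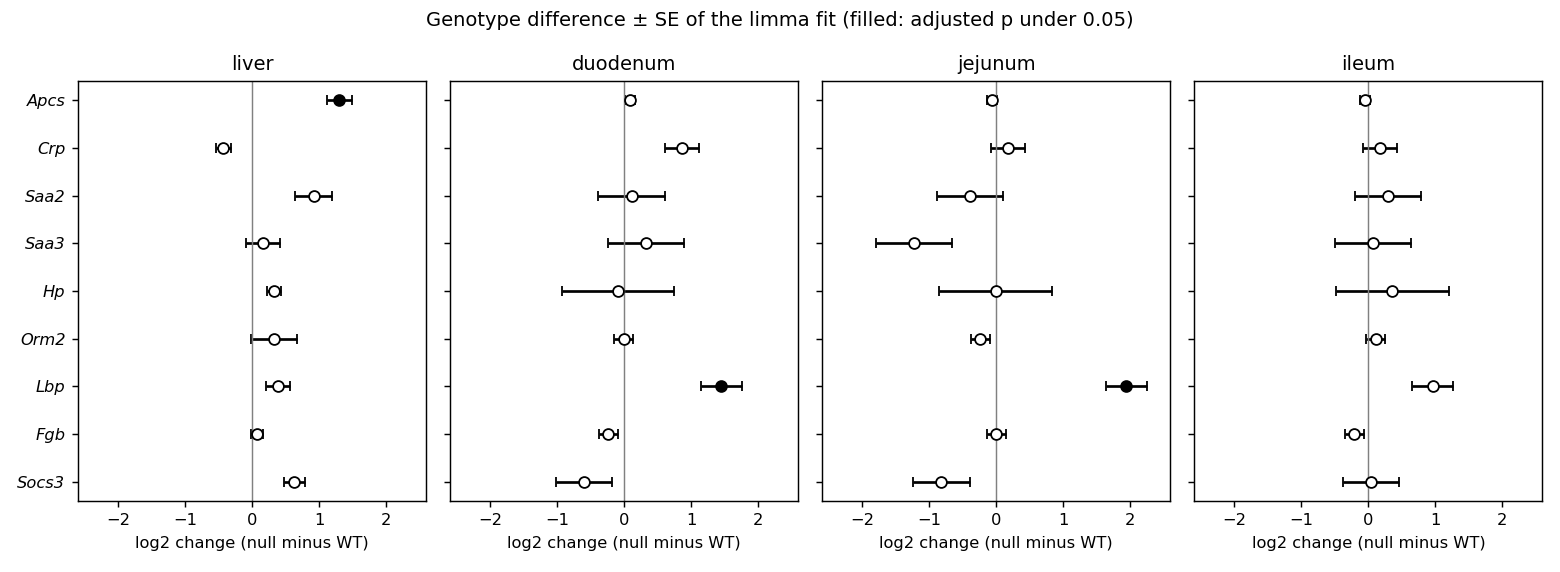
Genotype difference (horizontal axis, log2, Casp1-null minus wild type) with the SE of the limma fit for the 9 genes in liver, duodenum, jejunum and ileum, n = 3 arrays per group. Filled points are called at an adjusted p under 0.05: Apcs in liver (1.30), and Lbp in duodenum (1.45) and jejunum (1.94).

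In wild-type mice all 9 members were called for liver minus the segments' mean, 8 higher in liver and 1, Socs3, lower. That is a contrast for which 70.1% of all genes were called, 39.0% higher and 31.1% lower in liver, and feeding state differs with tissue in it. Whether the arrays of liver and intestine were normalized together is not stated. Scaling the arrays again moved the median of all genes from 0.06 to -0.04 (quantile) or -0.21 (median centring), and the share of calls that were higher in liver from 55.6% to 47.5% or 36.4%. All 9 members kept their call and direction under both. Fgb, Crp and Hp, low in intestine, were at least 587-fold, 307-fold and 345-fold higher in liver, and Apcs, Orm2 and Saa2 at least 36.3-fold, 19.9-fold and 20.1-fold. Lbp was 19.8-fold higher in liver (4.31, SE 0.235, adjusted p = 3.02e-12). Saa3, low in wild-type duodenum and jejunum, was higher in liver by at least 1.65 (SE 0.428, adjusted p = 0.00234). Socs3 was 2.93-fold lower in liver (-1.55, SE 0.312, adjusted p = 0.00024).

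For Lbp, wild-type levels ran from duodenum (5.03, SD 0.192) through jejunum (5.73, SD 0.314) and ileum (7.94, SD 0.52) to liver (10.54, SD 0.186). Ileum exceeded duodenum 7.53-fold (2.91, SE 0.306, adjusted p = 6.57e-06) and jejunum 4.61-fold (2.21, adjusted p = 0.000248), while duodenum and jejunum did not differ past the test (0.71, adjusted p = 0.229). The same order held for the Casp1-null means (6.47, 7.68, 8.90 and 10.93). From duodenum to ileum, 3 of 9 members were called (background 27.9%). Lbp and Saa3 were higher in ileum (14.7% of all genes were), Saa3 by at least 1.82 (adjusted p = 0.031) from a low level in duodenum. Crp was lower (13.2% were) but low in both segments, and its call was lost without wild-type duodenal array 1 (adjusted p = 0.1) or 2 (0.15), without wild-type ileal array 2 (0.14) or 3 (0.0787), and without both ileal arrays rich in smooth muscle transcripts (0.152). The Saa3 call was lost without wild-type duodenal array 1 (adjusted p = 0.0684), 2 (0.0828) or 3 (0.0633), and without wild-type ileal array 1 (0.109) or 2 (0.0642). The probe set shared by Saa2 and Saa1 was at least 26.9-fold higher in wild-type ileum than in duodenum (4.75, SE 0.705, adjusted p = 0.000158). For wild-type liver against the mean of the segments this shared probe set was not called (-1.14, adjusted p = 0.0643).

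For Socs3, wild-type levels were lowest in liver (6.35, SD 0.111), then duodenum (7.52, SD 0.667), ileum (7.58, SD 0.794) and jejunum (8.61, SD 0.667). The neighbours among the segments did not differ past the test (jejunum over duodenum 1.09, adjusted p = 0.171, and ileum against jejunum -1.03, adjusted p = 0.142). The second probe set was called for ileum against jejunum (-0.86, adjusted p = 0.0221), and the first was called there without wild-type ileal array 1 (-1.41, adjusted p = 0.0479). Of 9 members, 0 were called between wild-type jejunum and duodenum by limma (background 7.76%, with 3 at an unadjusted p under 0.05, against 21.4% of all genes), and 1, Lbp, between ileum and jejunum (background 15.4%, and 8.70% higher in ileum).

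The genes whose pattern was most like each member were taken from 10680 genes by Pearson's r over the 24 arrays, after the mean of each tissue had been subtracted, which leaves genotype and array-to-array differences. Arrays share genotype groups, so these are descriptions. Apcs was most like Lnx1 (r = 0.92) and Dhtkd1 (r = 0.90). Lbp was most like Mb21d2 (r = 0.92) and Bloc1s6 (r = 0.88), and Socs3 most like Arhgef7 (r = 0.90) and Myzap (r = 0.86). Hp was most like Cyp2e1 (r = 0.98), which was at 9.76 and 11.03 on the same 2 ileal arrays and at 3.40 to 3.70 on the other 4, and Adhfe1 (r = 0.97). For the others the highest r were lower: 0.79 for Orm2 (Tacc2), 0.76 for Saa2 (Pik3c2a), 0.75 for Saa3 (Pla2g5), 0.74 for Crp (Prmt6) and 0.69 for Fgb (Adam1a).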

How the data were processed

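The files held log2 expression per probe set, which the authors made by robust multi-array averaging (RMA, named in the submitters' processing notes without a version). No scaling was added. Medians of single arrays ran from 4.87 to 5.01 for intestine and from 5.19 to 5.22 for liver. Of 35556 probe sets, 21218 had 1 gene symbol, 1881 several and 12457 none. A gene was represented by its probe set with the highest mean.

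Genotypes were compared in R 4.3.3 by lmFit and eBayes of limma 3.58.1 (no trend, two-sided), on 6 liver arrays (4 residual degrees of freedom) or 18 intestinal arrays in 6 groups (12 degrees). For the mean over segments, segments with the same genotype and number were averaged first. Contrasts of liver with intestine used all 24 arrays. P-values were adjusted by Benjamini-Hochberg over all probe sets and measure the spread between arrays within groups. Apart from the mean over segments, the fits treated all arrays as independent. Arrays of different tissues that may share a mouse were not paired in them. Fits were tested on simulated data. Figures were drawn with matplotlib 3.10.9 in Python 3.11.15.

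The rule for named genes took the 9 measured members; per list and comparison up to 4 called genes by p, or up to 2 where none was called; called genes among the 10 on each side of Apcs and Saa3; and the 2 genes most like each member. Members and lists were chosen with earlier results of these data known. The reading of low means, the adipocyte list and the fits without 2 ileal arrays were chosen after the data had been seen, as were the values given for Il6, Stat3, Orm1 and Cyp2e1 by array. Replicate numbers were checked as pairs and do not pair the genotypes.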

Additional observations from a re-analysis of the deposited data

Results flagged for a closer look

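For Apcs, the test of the genotype difference in liver against that in the mean of the segments gave an adjusted p of 1.12e-05 (limma). Apcs rose in liver (1.30, higher in 3 of 3 Casp1-null livers) and was low in all intestinal groups, so the test sets the liver difference against values that may be background. Socs3 was higher in all 3 Casp1-null livers (0.63) and lower in all 3 Casp1-null jejuna (-0.82), and neither difference passed its test (adjusted p = 0.164 and 0.511). The difference between liver and jejunum was not tested by itself. Against the mean of all 3 segments, the liver difference of Socs3 was higher by 1.09 and did not pass the test (adjusted p = 0.286). No group had enough arrays for a search for single outlying values.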

How the results depend on the processing

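With all probe sets under the median mean left out, 0 members were called for liver against intestine (Apcs and 3 other members were not in that fit), 1 for wild-type ileum minus duodenum and 5 for wild-type liver minus segments, because fewer members were tested. The replicate block gave 0 members in liver (Apcs 1.30, adjusted p = 0.107) and changed no other count of called members; same-numbered arrays of the 2 genotypes correlated at -0.363 to 0.334, and 4 of 24 arrays correlated best with their own number. Leaving out arrays in turn gave 0 to 1 called members in liver, 0 to 2 in duodenum, 1 to 2 for liver against intestine, 0 to 1 for wild-type jejunum minus duodenum, 1 to 2 for ileum minus jejunum and 1 to 3 for ileum minus duodenum. Of 646 values of single members under other settings, 642 kept their direction and side of the threshold or changed sign without a call (16), 3 lost a call, 1 gained one and 0 reversed. Of 1512 with an array left out, 1488 kept their side, 19 lost a call, 5 gained one and 0 reversed. Crp in wild-type ileum minus duodenum lost its call with quantile normalization (adjusted p = 0.074), without the stroma-rich ileal arrays (0.152), and in 4 of 18 fits with an array left out (0.0787 to 0.15).

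Over all genes, 174 were called in liver, against 47 with the replicate block, 626 with the spread of all arrays and 42 to 325 with an array left out. In jejunum 387 were called, against 148 from that segment's arrays alone and 196 at the lowest with an array left out. In ileum 168 were called, against 23 from its own arrays and 109 at the lowest with an array left out. For the mean over segments 390 were called, against 135 with the replicate block, 977 without averaging first, 1018 without the ileal arrays rich in stroma markers and 161 with a number left out. Liver against intestine had 523, with 787 under array weights and 316 to 780 with an array left out. Wild-type jejunum minus duodenum had 1460, ileum minus jejunum 2906 and liver minus segments 13200, with 880 and 1869 at the lowest with an array left out for the first and second, and 8551 under the filter for the third. Genotype by segment had 22, and 12 with the filter. In duodenum 227 were called, against 363 with array weights and 140 with an array left out.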
